A study of Homo sapiens with 6 samples.

Results

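The constitutive genes of the proteasome were compared between HepG2 cells with and without a knockdown of KIF11. They were taken by name as every gene of the count table whose symbol begins with PSMA to PSMG followed by a digit, leaving out the inducible genes PSMB8, PSMB9, PSMB10, PSME1 and PSME2. This gave 44 of the 20030 genes in the table. Of these, 16 (PSMA and PSMB) belong to the core, 20 (PSMC and PSMD) to the cap, and 7 are other activators, an inhibitor or chaperones of core assembly. The name rule also takes in PSMC3IP, a recombination factor that binds PSMC3 and is no part of the proteasome, so it is given apart from the cap.

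HepG2 is an established human hepatoma line. The sh-ctrl group held 3 libraries from cells with a control shRNA and the sh-KIF11 group 3 libraries from cells with an shRNA against KIF11, a motor protein of the mitotic spindle. Both hairpins were delivered by lentivirus, and poly(A) RNA was sequenced from stranded libraries. The sources used here do not say whether the 3 libraries of a group came from separate cultures, so p-values measure the spread between these libraries, which may be technical.

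The proteasome is the protease that breaks down ubiquitin-tagged proteins in the cytosol and nucleus. Its core is a barrel of stacked rings. The outer alpha rings gate the entrance and the inner beta rings hold the protease sites, of which PSMB5 carries the chymotrypsin-like, PSMB6 the caspase-like and PSMB7 the trypsin-like activity. The cap sits on the barrel and consists of a base, whose ring of ATPases unfolds substrates, and a lid, whose subunit PSMD14 removes ubiquitin. When the protease is inhibited, the transcription factor NFE2L1 is known to raise the genes of core and cap together.

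The libraries held between 18167773 and 19583282 counts each. Counts were scaled with edgeR's TMM factors, which were 0.922 to 0.926 in sh-ctrl and 1.08 to 1.09 in sh-KIF11, and are given as CPM, counts scaled to library size. The scaling matters for every direction given here, since over the 12369 tested genes the median change on the log2 scale was 0.00 with TMM and 0.23 with library totals alone. A gene called lower is thus lower relative to that median. In the libraries labelled sh-KIF11, KIF11 had 72.1, 71.4 and 62.8 CPM against 111, 116 and 121 CPM in sh-ctrl, a log2 fold change of -0.75 (standard error, SE, 0.0573, Benjamini-Hochberg adjusted p = 4.22e-15 by edgeR quasi-likelihood). All 12 markers of hepatoma cells and hepatocytes were detected, and their summed level was 38145 to 39908 CPM in sh-ctrl and 16647 to 17918 CPM in sh-KIF11, with 11 of the 12 lower. Of 12 markers of other cell types, 6 had at most 3 counts in every library, HBB and KRT5 had 0 counts throughout, and the summed level was 179 to 191 CPM in sh-ctrl and 234 to 251 CPM in sh-KIF11. The part of these marker changes in the results below was not tested.

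Proteasome genes were lower in sh-KIF11, or not called, and none was called higher with TMM scaling. Of the 44 genes, 42 had enough counts to be tested, PSMC3IP among them. Of these, 31 were lower, 0 were higher and 11 did not pass an adjusted p of 0.05 (edgeR quasi-likelihood, Benjamini-Hochberg adjusted). Among all tested genes 34.7% were lower and 34.4% higher by the same rule, 69.1% in all. The 31 genes called lower were also those in which every sh-KIF11 library lay below every sh-ctrl library, which held in that direction for 35.8% of all tested genes, in the other direction for 35.4% and in either for 71.2%. The median log2 fold change of the 42 genes was -0.26, the lowest being -0.71 for PSMB3 and the highest 0.09 for PSMD6, so no gene reached a 2-fold change. Together the 44 genes took 0.660% ± 0.0123 of all counts in the sh-ctrl libraries and 0.627% ± 0.00724 in the sh-KIF11 libraries (SD, n = 3 each). These are bulk libraries, in which fewer cells expressing a gene and less RNA per cell cannot be told apart.

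The direction rests on the scaling for the genes with small changes. With library totals alone, 16 of the 42 genes were lower, 10 were higher and 16 were not called, beside 19.2% lower and 53.5% higher among all tested genes. The 10 that were higher include PSMC3IP, which is no part of the proteasome. Upper-quartile factors gave 22 lower and 3 higher, beside 28.8% and 40.5% of all tested genes. Limma on the log2 of the authors' FPKM gave 18 lower and 8 higher with a pseudocount of 1 or of 0.1, beside 21.0% lower and 45.6% or 45.8% higher among all tested genes.

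**Figure D1:**
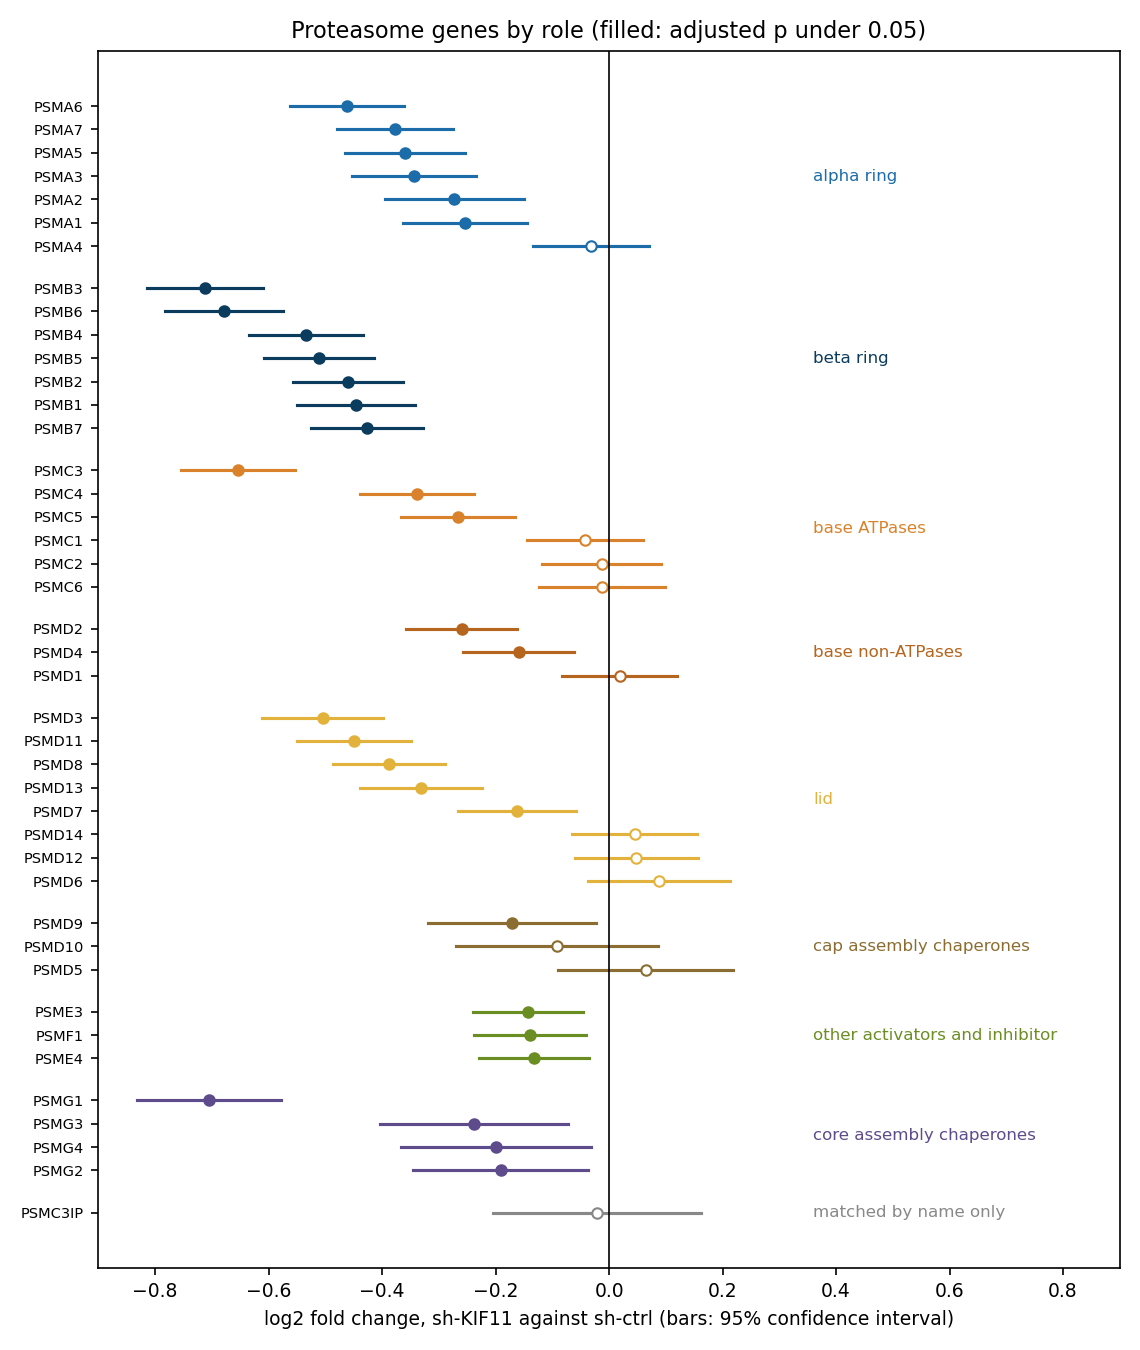
Log2 fold change of each tested proteasome gene (sh-KIF11 against sh-ctrl, TMM scaling) with its 95% confidence interval, ordered by role; filled points had an adjusted p under 0.05. The 7 genes of the beta ring lie between -0.71 and -0.43, whereas the genes of the lid run from -0.50 to 0.09. Under library totals alone 10 of the 42 genes were called higher, PSMC3IP among them.

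The beta ring was lower in all of its 7 genes. PSMB3, a structural subunit of this ring, lies on chromosome 17 (GRCh38, 38752741 to 38764225, plus strand). It had 208, 196 and 211 CPM in the sh-ctrl libraries and 121, 128 and 127 CPM in the sh-KIF11 libraries. The groups did not overlap. Its log2 fold change was -0.71 (SE 0.0506, Benjamini-Hochberg adjusted p = 4.31e-16 by edgeR quasi-likelihood), or 39.0% less. This was the lowest value and the smallest adjusted p among the proteasome genes.

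The catalytic subunits of this ring were all lower. PSMB6 (chromosome 17, 4796164 to 4798495, plus strand), with the caspase-like site, had 158, 151 and 158 CPM in sh-ctrl and 100, 93.4 and 97.8 CPM in sh-KIF11. PSMB5 (chromosome 14, 23025851 to 23035220, minus strand), with the chymotrypsin-like site, had 377, 360 and 365 CPM in sh-ctrl and 257, 251 and 266 CPM in sh-KIF11. PSMB7 (chromosome 9, 124353465 to 124415442, minus strand), with the trypsin-like site, had 184, 183 and 189 CPM in sh-ctrl and 140, 138 and 136 CPM in sh-KIF11. In none of these genes did the groups overlap. The log2 fold changes were -0.68 for PSMB6, -0.51 for PSMB5 and -0.43 for PSMB7, with standard errors of 0.0514, 0.0480 and 0.0491. Their 95% confidence intervals were -0.78 to -0.58, -0.61 to -0.41 and -0.53 to -0.33, and the adjusted p was 3.13e-15, 1.86e-12 and 4.41e-10 (edgeR quasi-likelihood, Benjamini-Hochberg adjusted).

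Of the other structural subunits of the beta ring, PSMB4 had 203, 196 and 195 CPM in sh-ctrl and 133, 135 and 142 CPM in sh-KIF11, and a log2 fold change of -0.53 (Benjamini-Hochberg adjusted p = 1.49e-12 by edgeR quasi-likelihood). PSMB1 and PSMB2 changed by -0.45 and -0.46 on the log2 scale. The median over the ring was -0.51. Library totals alone left the 7 genes lower, between -0.48 and -0.20, and all 7 were also called lower with upper-quartile factors and with limma on FPKM.

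The alpha ring was lower in 6 of its 7 genes, with a median log2 fold change of -0.34. PSMA6 stood lowest, with 387, 391 and 431 CPM in sh-ctrl and 293, 288 and 297 CPM in sh-KIF11. Its groups did not overlap, and its log2 fold change was -0.46 (SE 0.0495, Benjamini-Hochberg adjusted p = 6.84e-11 by edgeR quasi-likelihood). The genes PSMA1, PSMA2, PSMA3, PSMA5 and PSMA7 lay between -0.38 and -0.25.

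PSMA4 was the exception in the core. It had 139, 130 and 142 CPM in sh-ctrl and 134, 135 and 133 CPM in sh-KIF11, and the groups overlapped. Its log2 fold change was -0.03 (95% confidence interval -0.13 to 0.07, Benjamini-Hochberg adjusted p = 0.584 by edgeR quasi-likelihood). PSMA4 was called higher with library totals alone, at 0.20, while PSMA5, PSMA6 and PSMA7 remained lower.

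The tissue-specific core genes could not be tested. PSMA8, the alpha subunit of the testis, had 0 counts in all 6 libraries, which allows up to 3 counts in each, or 0.145 to 0.178 CPM depending on the library. PSMB11, the beta subunit of the thymic cortex, had 3 counts in sh-KIF11 replicate 3 and 0 in the other 5 libraries. These limits cover counting error only.

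**Figure D2:**
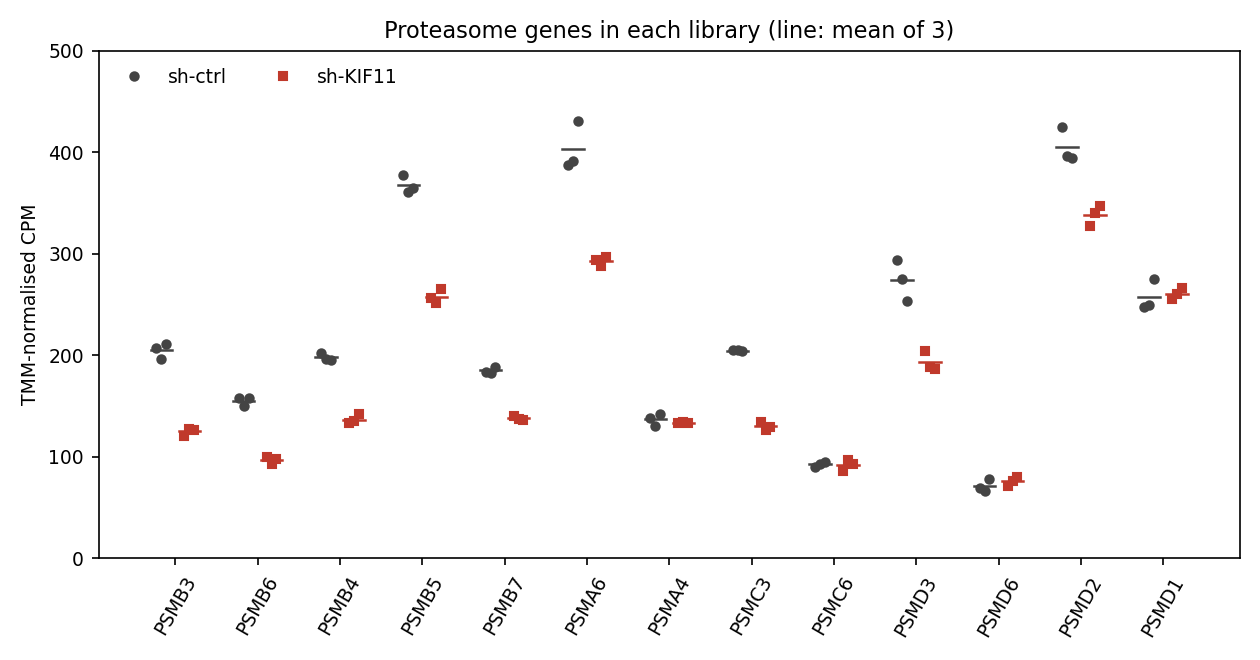
TMM-normalised CPM of 13 proteasome genes in each of the 6 libraries (circles sh-ctrl, squares sh-KIF11, lines the mean of 3). In PSMB3, PSMB6, PSMB4, PSMB5, PSMB7, PSMA6, PSMC3, PSMD3 and PSMD2 every sh-KIF11 library lies below every sh-ctrl library, and in PSMA4, PSMC6, PSMD6 and PSMD1 the groups overlap.

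The cap was divided. Of its 20 genes, 11 were lower and 9 were not called, with a median log2 fold change of -0.16. Thus 55% of the cap genes were called, all of them lower. Among all tested genes 34.7% were lower and 34.4% higher, 69.1% in all. Within the ring of 6 ATPases, which is built from 1 copy of each, PSMC3, PSMC4 and PSMC5 were lower and PSMC1, PSMC2 and PSMC6 were not called. This split of the ring was not kept when the composition of the transcripts was corrected for. Of the 6 ATPases, 5 were then lower with GC and 6 with GC and length. PSMC3 (chromosome 11, 47418775 to 47426439, minus strand) had 205, 205 and 204 CPM in sh-ctrl and 134, 126 and 130 CPM in sh-KIF11, with no overlap. Its log2 fold change of -0.65 (SE 0.0495, Benjamini-Hochberg adjusted p = 3.05e-15 by edgeR quasi-likelihood) was the lowest of the cap.

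PSMC6 stood at the other end of the same ring. It had 90.2, 93.2 and 94.9 CPM in sh-ctrl and 86.1, 96.7 and 93.2 CPM in sh-KIF11. The groups overlapped, and the log2 fold change was -0.01 (95% confidence interval -0.12 to 0.10, Benjamini-Hochberg adjusted p = 0.855 by edgeR quasi-likelihood). PSMC1 and PSMC2 had values of -0.04 and -0.01. The fold changes of PSMC4 and PSMC5 were -0.34 and -0.27. PSMC1 has 13 named pseudogenes and its exons overlap those of NRDE2 on the opposite strand, so its counts are less certain.

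Among the non-ATPase subunits of the base, PSMD2, a scaffold that binds ubiquitin-like domains, had 425, 397 and 394 CPM in sh-ctrl and 328, 340 and 347 CPM in sh-KIF11. The groups did not overlap, and its log2 fold change was -0.26 (Benjamini-Hochberg adjusted p = 9.64e-06 by edgeR quasi-likelihood). PSMD2 was not called with library totals alone, at -0.03, or with limma on FPKM, at -0.09. The ubiquitin receptor PSMD4 was lower, at -0.16. PSMD4 was not called with upper-quartile factors, at -0.08, with library totals alone, at 0.07, or with limma on FPKM, at 0.02. PSMD1, the other large scaffold, had 247, 250 and 276 CPM in sh-ctrl and 255, 261 and 267 CPM in sh-KIF11, which overlapped, with a value of 0.02 (95% confidence interval -0.08 to 0.12).

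The lid had 5 of its 8 genes lower, namely PSMD3, PSMD7, PSMD8, PSMD11 and PSMD13. PSMD3, a structural subunit (chromosome 17, 39980807 to 39997959, plus strand), had 294, 275 and 254 CPM in sh-ctrl and 205, 188 and 186 CPM in sh-KIF11, with no overlap and a log2 fold change of -0.50 (Benjamini-Hochberg adjusted p = 3.98e-11 by edgeR quasi-likelihood). The deubiquitinase PSMD14 was not called, at 0.04, nor was PSMD12, at 0.05. PSMD6 had 69.7, 66.6 and 78.7 CPM in sh-ctrl and 71.1, 76.7 and 80.5 CPM in sh-KIF11. These groups overlapped, and the value was 0.09 (95% confidence interval -0.04 to 0.21, Benjamini-Hochberg adjusted p = 0.205 by edgeR quasi-likelihood). Without sh-ctrl replicate 3, PSMD6 was called higher, at 0.16. PSMD6, PSMD12 and PSMD14 were called higher with upper-quartile factors, at 0.17, 0.13 and 0.12. With library totals alone these genes were also called higher, at 0.32, 0.28 and 0.28. The exons of PSMD6 overlap those of PSMD6-AS1 and PSMD6-AS2 on the opposite strand.

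Of the 3 chaperones that help to assemble the base, PSMD9 was lower. PSMD9 had 35.8, 38.9 and 37.1 CPM in sh-ctrl and 33.0, 34.4 and 31.8 CPM in sh-KIF11. The groups did not overlap and its log2 fold change was -0.17 (Benjamini-Hochberg adjusted p = 0.0361 by edgeR quasi-likelihood). The call on PSMD9 was lost without sh-ctrl replicate 2, at -0.13, without sh-KIF11 replicate 1, at -0.17, and without sh-KIF11 replicate 3, at -0.15. It was also lost with DESeq2, at -0.18, with upper-quartile factors, at -0.09, with at least 10 counts in every library, at -0.15, and with library totals alone or limma on FPKM, where PSMD9 stood at 0.06 and 0.03. PSMD5 and PSMD10 were not called, at 0.06 and -0.09, though PSMD10 was lower without sh-ctrl replicate 1, at -0.19.

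The genes outside core and cap were lower in all 7 cases with TMM scaling, and with library totals alone only PSMG1 was lower and the other 6 were not called. PSMG1 (chromosome 21, 39174769 to 39183514, minus strand), which pairs with PSMG2 to help build the alpha ring, had 74.5, 71.0 and 79.0 CPM in sh-ctrl and 47.8, 43.4 and 46.6 CPM in sh-KIF11. The groups were well apart, and the log2 fold change was -0.70 (SE 0.0630, Benjamini-Hochberg adjusted p = 4.60e-13 by edgeR quasi-likelihood), similar in size to PSMB3.

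Its partner PSMG2 had 38.3, 37.8 and 45.5 CPM in sh-ctrl and 36.3, 34.3 and 35.8 CPM in sh-KIF11. The gap between the groups was small, and the log2 fold change was -0.19 (Benjamini-Hochberg adjusted p = 0.0247 by edgeR quasi-likelihood). The call on PSMG2 was lost without sh-ctrl replicate 3, at -0.10, and without sh-KIF11 replicate 2, at -0.17. It was also lost with at least 10 counts in every library, with limma on FPKM and with upper-quartile factors, at -0.11 in the last. PSMG3 and PSMG4, the second chaperone pair, changed by -0.24 and -0.20. PSMG3 was not called without sh-ctrl replicate 1, at -0.20, and PSMG4 was not called with DESeq2, at -0.21, with at least 10 counts in every library, at -0.17, with the GC content of transcripts corrected for, at -0.11, or without sh-ctrl replicate 2, sh-KIF11 replicate 2 or sh-KIF11 replicate 3, at -0.15, -0.21 and -0.18. With upper-quartile factors PSMG3 and PSMG4 stood at -0.16 and -0.12, and neither was called. Limma on FPKM called neither of them. The 95% confidence interval of PSMG1, -0.83 to -0.58, did not meet those of the other 3 chaperones, the lowest bound of which was -0.40.

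The alternative activators PSME3 and PSME4 and the inhibitor PSMF1 had log2 fold changes of -0.14, -0.13 and -0.14. Their adjusted p was 0.00805, 0.0134 and 0.0109 (edgeR quasi-likelihood, Benjamini-Hochberg adjusted). With library totals alone these 3 genes lay at 0.09, 0.10 and 0.09 and none was called, and without sh-KIF11 replicate 1 the call on PSME4 was lost, at -0.13, as was that on PSMF1 without sh-ctrl replicate 2, at -0.11. With upper-quartile factors the 3 genes lay at -0.06, -0.05 and -0.06, and none was called. Limma on FPKM called none of them. PSMC3IP, which shares only the name, had 16.8, 18.2 and 18.3 CPM in sh-ctrl and 19.2, 16.4 and 16.9 CPM in sh-KIF11, with a value of -0.02.

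The core fell further than the cap within the same libraries. Of the tested core genes 13 of 14 were lower, with a median log2 fold change of -0.44, and of the cap genes 11 of 20, with a median of -0.16. Among all tested genes 34.7% were lower and 34.4% higher. Scaling by library totals alone gave 10 core genes lower and 1 higher, and 5 cap genes lower and 8 higher. With that scaling 19.2% of all tested genes were lower and 53.5% higher. The mean log2 CPM of the core exceeded that of the cap by 0.59, 0.60 and 0.61 in the sh-ctrl libraries and by 0.37, 0.35 and 0.36 in the sh-KIF11 libraries. The groups were far apart compared with their spread (SD 0.00855 and 0.00875, n = 3 each), and the difference between them was -0.24. Since both means come from the same library, the scaling factor cancels: the median of the core minus that of the cap was -0.28 with TMM and with library totals alone.

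The rings of the core differed as well. The mean log2 CPM of the beta ring exceeded that of the alpha ring by 0.60, 0.56 and 0.47 in sh-ctrl and by 0.28, 0.29 and 0.34 in sh-KIF11. The groups did not overlap, and the difference between them was -0.24. This contrast was not kept when the composition of the transcripts was corrected for: the medians of the alpha and beta ring were then -0.49 and -0.45 with GC and -0.30 and -0.30 with GC and length.

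**Figure D3:**
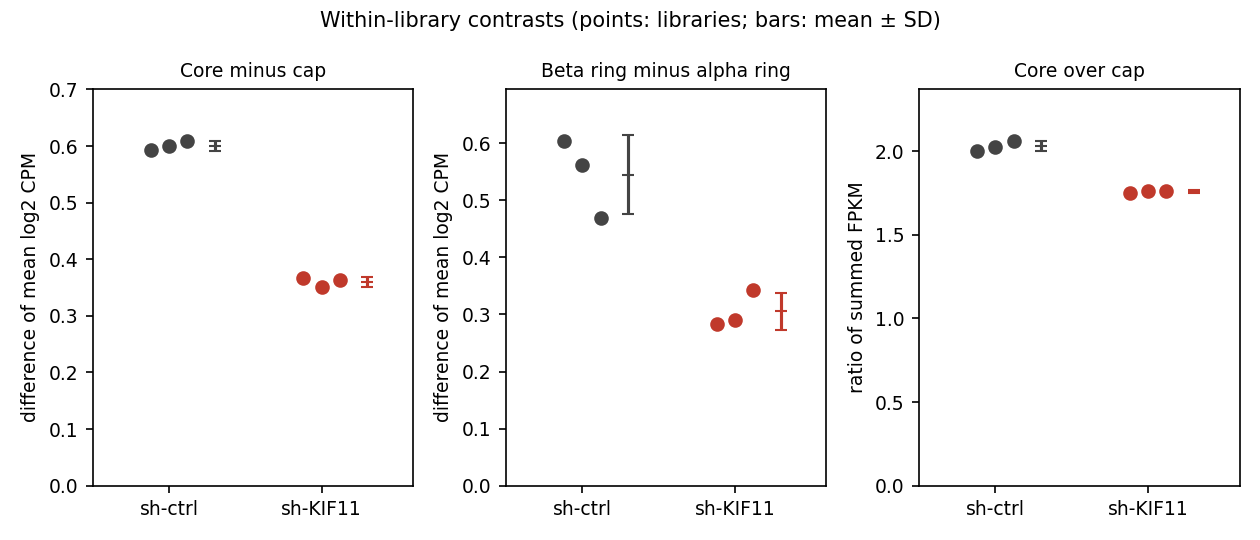
Contrasts computed within each library: the mean log2 CPM of core minus cap genes, the same for the beta minus the alpha ring, and the ratio of summed FPKM of core over cap (points are libraries, bars the mean ± SD of 3). In all 3 panels every sh-KIF11 library lies below every sh-ctrl library. None of the panels is corrected for GC content, and the contrast between the rings was not kept under that correction.

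On a scale per transcript length, the core genes summed to more than the cap genes. By FPKM in sh-ctrl, 9 of the 14 highest of the 34 genes were core genes and 5 were cap genes, and PSMA5 ranked 27. In the authors' FPKM (fragments per kilobase of transcript, scaled to library size), the 14 core genes summed to 2005 ± 33.8 in the sh-ctrl libraries and 1666 ± 27.9 in the sh-KIF11 libraries (SD, n = 3 each). The 20 cap genes summed to 988 ± 15.1 and 947 ± 12.0. The ratio of the sums went from 2.03 ± 0.0305 to 1.76 ± 0.00741.

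The highest FPKM levels in sh-ctrl were those of PSMB3, at 276 ± 12.9, PSMB1, at 269 ± 5.05, and PSMA7, at 265 ± 13.8 (SD, n = 3 each), and the libraries of these neighbours overlapped. PSMB4 followed at 240 ± 7.31 FPKM, then PSMB5 at 157 ± 3.11, PSMB7 at 145 ± 1.71 and PSMB6 at 138 ± 2.87, each with its 3 libraries above those of the next gene. In sh-KIF11, PSMB3 had an FPKM of 194 ± 5.65 and lay below PSMB1, at 228 ± 15.7, and PSMA7, at 245 ± 4.44. The most abundant cap gene was PSMD8, at 98.8 ± 2.22 FPKM in sh-ctrl, and the least abundant was PSMD5, at 9.58 ± 0.627. Over the 34 core and cap genes ranked by FPKM, 17 neighbouring pairs were apart in all sh-ctrl libraries and 16 overlapped.

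The size of the change varied with the base composition of the transcript. Over the 12225 tested genes with a matched transcript, the log2 fold change had a Spearman correlation of -0.30 with GC content and of 0.27 with transcript length, and its median went from 0.29 in the 1223 genes with the lowest GC to -0.23 in the 1223 with the highest. Over the 34 core and cap genes the correlation with GC was -0.60, and over the 20 cap genes alone it was -0.83. These correlations are across genes of the same libraries, which are not independent replicates. The 11 cap genes that were lower had a median GC content of 53.2% and the 9 that were not called 44.2%. PSMC3 and PSMD3 have 56.2% and 58.6% GC, whereas PSMC6 and PSMD12 have 38.1% and 38.0%.

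Core and cap differed little in GC content, with medians of 47.3% and 48.0%, and more in length, with medians of 988 and 1812 bases. Fits that removed the trend of each library on GC, or on GC and length, were added after the data were seen. With the GC correction all 14 core genes were lower and 13 of the 20 cap genes, and none was higher, beside 35.6% lower and 32.4% higher among all tested genes. The medians were then -0.47 for the core and -0.20 for the cap, a difference of -0.27.

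With GC and length corrected, 14 of 14 core genes and 14 of 20 cap genes were lower and none was higher, beside 35.8% lower and 31.8% higher among all tested genes. The medians were -0.30 and -0.11, a difference of -0.19. The core was thus lower than the cap under both corrections.

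Several calls on single genes changed with these corrections. PSMA4 was lower in both, at -0.19 and -0.23, and so were PSMC2, at -0.26 and -0.20, PSMC6, at -0.27 and -0.11, PSMD12, at -0.21 and -0.13, and PSMD1, at -0.08 and -0.09. The transcript of PSMA4 was not matched by accession but taken as its longest coding one, of 4411 bases. Its corrected values are thus less certain. PSMC1 was lower with GC and length corrected, at -0.10, and not called with GC alone, at -0.03. PSMD4, PSMD9 and PSMG3 were no longer called in either, with PSMG3 at -0.09 and 0.01, PSMD4 at -0.06 and 0.06 and PSMD9 at -0.09 and -0.10. PSMB3, PSMC3, PSMD11 and PSMG1 remained lower, at -0.39, -0.44, -0.49 and -0.50 with GC and length corrected.

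**Figure D4:**
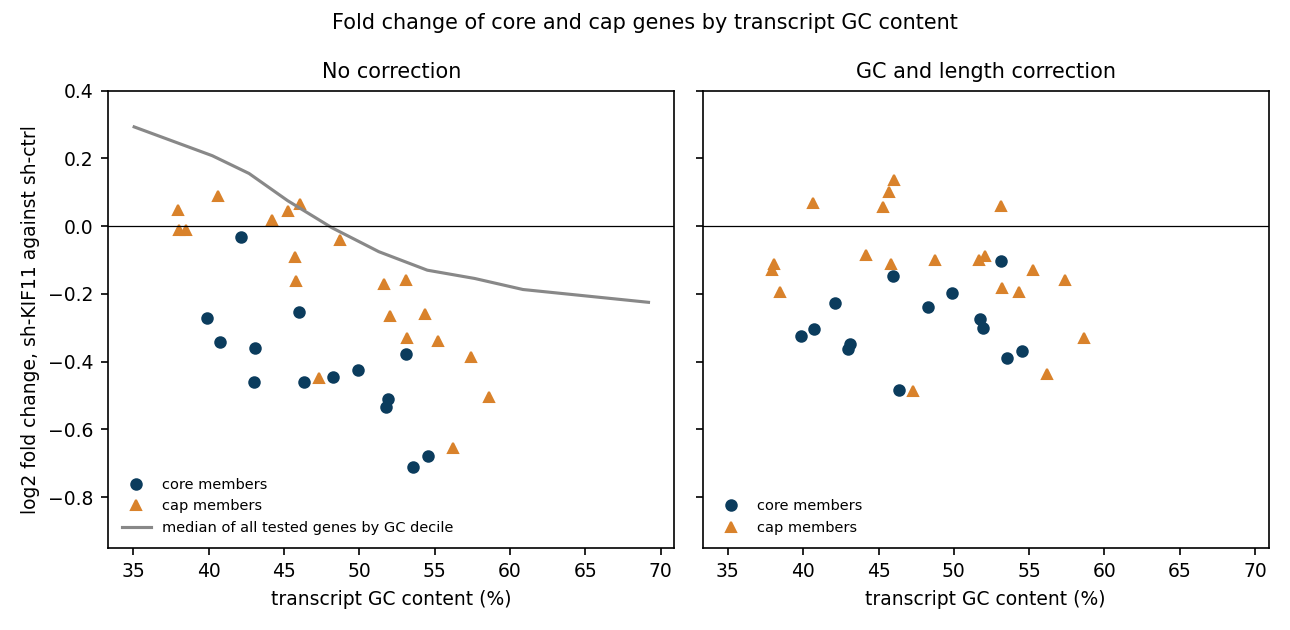
Log2 fold change of the 14 core (circles) and 20 cap genes (triangles) against the GC content of their transcript, without correction on the left and after correction for GC and length on the right; the grey line joins the medians of all tested genes in 10 equal bins of GC content. On the left both classes slope down with GC, and on the right the core has a median of -0.30 and the cap of -0.11.

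The promoters were read for sequence motifs known from proteasome genes. RefSeq promoter sequences (GRCh38.p14, 250 bases before to 50 after each start) were found for 38 of the 44 genes. The antioxidant response element that NFE2L1 and NFE2L2 bind was searched as TGACNNNGC on both strands. It was found in 12 of the 38 genes, or 25.5% of their 47 promoters, beside 13.3% of all 34796 promoters. Stretches of 30 bases around this motif, with the motif in capitals, are printed for genes that were lower and for genes that were not called, chosen after their values were seen. They are read on the strand of the gene.
PSMB3 (lower, chr17:38752627-38752656, plus strand): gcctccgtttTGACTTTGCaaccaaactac
PSMD3 (lower, chr17:39980760-39980789, plus strand): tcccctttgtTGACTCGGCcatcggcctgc
PSMC5 (lower, chr17:63827654-63827683, plus strand): gaccggatctGCTGTGTCAgcgccgccctc
PSMG1 (lower, chr21:39183615-39183644, minus strand): gcccagggcaTGACAGCGCgggcgggcggt
PSMA4 (not called, chr15:78540650-78540679, plus strand): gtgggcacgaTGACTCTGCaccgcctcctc
PSMD12 (not called, chr17:67366723-67366752, minus strand): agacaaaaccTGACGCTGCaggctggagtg

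In PSMB3 the motif starts at position -104 from the start site, in PSMD3 at -37 and in PSMD12 at -165. In PSMC5 it reads on the opposite strand. PSMA4 and PSMC5 have several annotated starts, of which 1 each holds this motif. The motif stood in 2 of 12 core genes and in 7 of 19 cap genes with a promoter. These 12 include the untested PSMA8 and PSMB11, and they lack PSMA7, PSMB1, PSMB6 and PSMB7, for which no promoter was found. It stood in 8 of 25 genes that were lower and in 4 of 11 that were not called.

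The other motifs searched stood among the genes that were lower and among those not called. The CCAAT box, bound by NF-Y, stood in 8 of 12 core genes (the untested PSMB11 among them) and 9 of 19 cap genes, and in 44.7% of the 47 promoters beside 34.6% of all promoters. It was found in 13 of 25 genes that were lower and in 6 of 11 not called. The ETS core CCGGAAG stood in 2 of 12 core genes (the untested PSMA8 among them) and 10 of 19 cap genes, and in 36.2% of the promoters beside 10.2% of all, with 8 of 25 genes that were lower and 7 of 11 not called. A match of letters is a description of the sequence and not a binding site.

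The inducible subunits, which are left out of the constitutive set, were all lower. PSMB8, PSMB9 and PSMB10 replace the catalytic subunits PSMB5, PSMB6 and PSMB7 in immune cells and under interferon, and PSME1 and PSME2 form the interferon-induced activator. The median of the 5 was -0.81 on the log2 scale, beside -0.26 over the constitutive genes, and all 5 were lower with library totals alone too. PSMB9 had 7.65 ± 0.295 CPM in sh-ctrl and 2.65 ± 0.605 CPM in sh-KIF11 (SD, n = 3 each), for a log2 fold change of -1.52 (SE 0.172, Benjamini-Hochberg adjusted p = 2.57e-10 by edgeR quasi-likelihood). PSME1 had 201 ± 8.01 and 109 ± 1.99 CPM, a log2 fold change of -0.88. PSMB8, PSMB10 and PSME2 changed by -0.81, -0.62 and -0.58. With GC and length corrected these 5 values lay between -1.18 and -0.34.

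Other genes around the proteasome were called in both directions, as were the tested genes at large. Of 13 partners outside the PSM names, 3 were lower and 2 higher, with a median log2 fold change of -0.03. In all 38.5% of the partners were called, beside 69.1% of all tested genes. Library totals alone gave 3 lower and 10 higher, beside 19.2% and 53.5% of all tested genes. The subunits SEM1, of the lid, and ADRM1, a ubiquitin receptor of the base, were lower, at -0.39 and -0.35, while POMP, the maturation factor of the core, was not called at -0.05. POMP was lower in both composition corrections, at -0.41 and -0.19, and higher with library totals alone, at 0.18. The lowest of these partners was ZFAND2A, an arsenite-inducible protein that binds the proteasome, at -0.56, and the highest was ZFAND5, a proteasome activator, at 0.47.

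Of 15 genes of ubiquitin supply and shuttling, 9 were lower and 2 higher, beside 34.7% and 34.4% of all tested genes, with a median of -0.20. Library totals alone gave 3 lower and 6 higher, beside 19.2% and 53.5% of all tested genes. The ubiquitin genes RPS27A and UBB were lower, at -0.29 and -0.28. RPS27A and UBB were not called with library totals alone, at -0.06 and -0.05. The unfoldase VCP was lower, at -0.43. UBA6, an enzyme that activates ubiquitin, was the highest, at 0.46, and was not called with GC and length corrected, at 0.03.

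Of 11 tested genes that control transcription of proteasome genes, 4 were lower and 3 higher. With TMM these counts, 36.4% lower and 27.3% higher, lie near the 34.7% and 34.4% of all tested genes. With library totals alone 2 were lower and 6 higher, beside 19.2% and 53.5% of all tested genes. NFE2L1 had 415 ± 12.0 CPM in sh-ctrl and 310 ± 6.81 CPM in sh-KIF11 (SD, n = 3 each), for a log2 fold change of -0.42 (SE 0.0477, Benjamini-Hochberg adjusted p = 2.65e-10 by edgeR quasi-likelihood). DDI2, the protease that activates the NFE2L1 protein, was lower, at -0.22, and was not called with library totals alone, at 0.01. The related factors NFE2L2 and NFE2L3 were higher, by 0.21 and 0.52, and the small partner MAFF was lowest, at -0.69. DDI1 had no count in any library.

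**Figure D5:**
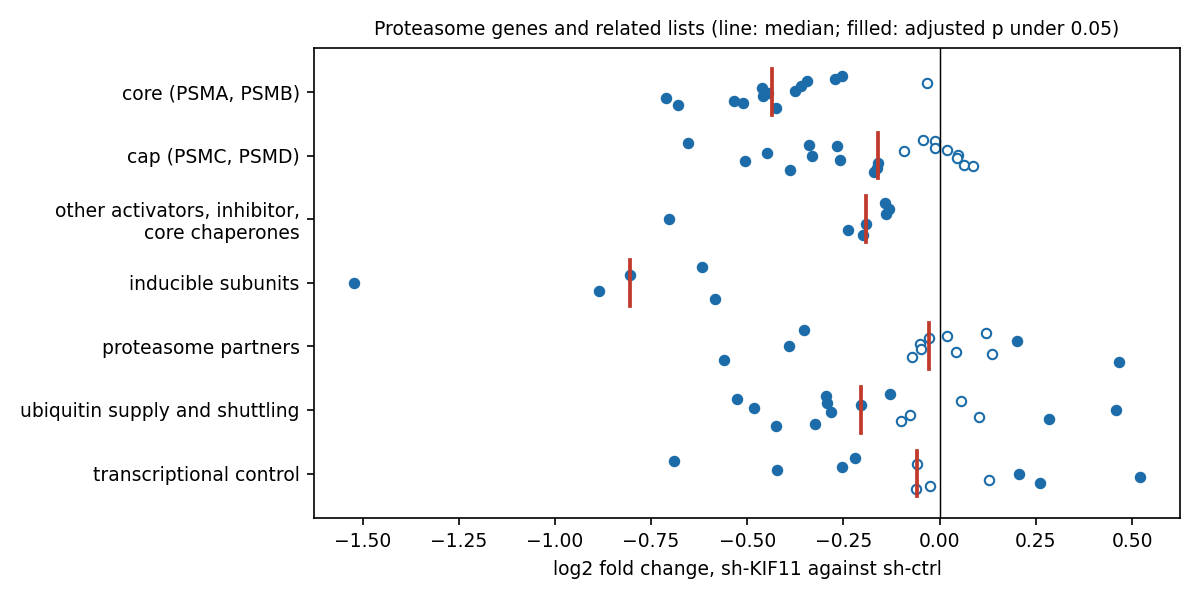
Log2 fold change (sh-KIF11 against sh-ctrl, TMM scaling) of each tested gene in the classes of constitutive proteasome genes and in the related lists; filled points had an adjusted p under 0.05 and the lines mark medians. The inducible subunits have a median of -0.81 and the core of -0.44, whereas the partners and the transcriptional control genes spread to both sides of 0.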

How the data were processed

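The authors deposited raw read counts per gene, without normalization, and FPKM values of the same genes, which they had scaled by transcript length and library size. The submitters' processing notes name bcl2fastq 1.8.4, Trimmomatic, HISAT2 2.1.0, HTSeq 0.9.1, Cufflinks 2.2.1, DESeq and GRCh38, without roles. The annotation and the use of strand in counting are not given in the sources used here, so counts of overlapping genes and of genes with pseudogenes are less certain: 16 of the 44 genes overlap exons on the opposite strand and 11 have named pseudogenes. Knockdown columns named only shRNA were taken as sh-KIF11, the labels listing no other shRNA besides the control. No columns of authors' comparisons were used.

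Genes were kept with filterByExpr (12369 genes) and tested with edgeR 4.0.16 in R 4.3.3 (TMM, quasi-likelihood fit, group as the only term, all 6 libraries, two-sided, p-values adjusted over all tested genes by Benjamini-Hochberg, threshold 0.05). DESeq2 1.42.0 and limma 3.58.1 served as alternatives. Log2 CPM used a prior count of 2. The biological coefficient of variation was 4.87%. The procedures were tested on simulated counts. For the main fit, 42.4% of genes given a log2 change of 0.25 were recovered, 85.1% of those given 0.5 and 95.5% of those given 1. Far fewer genes were changed there than were called here, so the simulation does not test the scaling. Between libraries of 1 group the chi-square of the counts was 2.67 to 8.11 times its degrees of freedom, above sampling noise, so none was taken as a repeat deposit of another. An exact permutation test of 3 against 3 cannot give a two-sided p below 0.1. Transcript GC and length came from GENCODE release 29, as did gene strands, exon overlaps and pseudogenes. Gene coordinates came from RefSeq. A transcript was matched for 12225 tested genes, for 8675 of them by accession and for the others as the longest coding transcript of that name.

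The genes and lists were chosen with earlier results of these data known. Named are KIF11, PSMB5, PSMB6, PSMB7, PSMC3IP, the inducible subunits, NFE2L1, untested members, the highest and lowest gene by log2 fold change of each role or list, and the 5 members with the smallest adjusted p. Any other gene was named with its values known. Not every gene chosen in this way is reported. The alternatives were other scalings, other filters, DESeq2, limma on FPKM (log2 with a pseudocount of 1 or 0.1), a block on the replicate number, leaving out each library, a stricter threshold, other definitions of the cap and means over genes.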

Additional observations from a re-analysis of the deposited data

How the results depend on the processing

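The core stayed below the cap in every alternative run, and the size of the difference in medians (-0.28) was between -0.29 and -0.26 with a library left out (-0.26 without sh-ctrl replicate 1, -0.29 without sh-ctrl replicate 2), -0.27 with limma on log2(FPKM + 1), -0.24 with means over genes and -0.19 with GC and length corrected. Runs that only changed the scaling factors could hardly move this difference, since such a factor shifts both medians alike. What depended on the processing was the direction of genes with small changes. With a library left out, 28 to 31 proteasome genes were called, 28 to 31 lower and 0 to 1 higher, 13 to 13 of the core and 10 to 12 of the cap lower and 0 to 1 of the cap higher, with medians of -0.44 to -0.41 and -0.18 to -0.15. In these fits 4002 to 4321 of all tested genes were lower and 3960 to 4428 higher, out of 12481 to 12580. DESeq2 called 29, beside 4063 lower and 4044 higher of 14327 tested genes. An adjusted p of 0.01 left 26 lower, and the share over all tested genes at that threshold is not given here.

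With library totals alone, 16 of the genes taken by name were lower and 10 higher, the latter including PSMC3IP (5 and 8 in the cap). The medians were -0.21 for the core and 0.070 for the cap. Limma gave 18 lower and 8 higher (6 and 7 in the cap) with either pseudocount, and medians of -0.24 for the core (-0.24 with 0.1) and 0.026 for the cap (0.027 with 0.1). Upper-quartile factors gave 3 higher, all 3 in the cap (PSMD6, PSMD12 and PSMD14), and medians of -0.36 and -0.082. The GC correction gave medians of -0.47 and -0.20, and GC with length -0.30 and -0.11. The shift of all genes between scalings follows from their construction; the other causes were not tested.

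Of the 42 proteasome genes, the sign turned in 14 with library totals alone (8 of them called lower with TMM), 12 with limma at either pseudocount (6), 5 with upper-quartile factors (0), 3 with at least 10 counts in every library (0), 5 with the GC correction (0) and 6 with GC and length (2, PSMD4 at 0.058 and PSMG3 at 0.014), and in 0 with RLE size factors, DESeq2, no low-count filter or the block. For the genes named by rule, the values after a turn were these. With library totals alone PSMA4, PSMC6, PSMC3IP, PSMD9, PSME4, PSME3 and PSMG2 stood at 0.20, 0.22, 0.21, 0.059, 0.098, 0.087 and 0.039. With limma on log2(FPKM + 1) PSMA4, PSMC6, PSMC3IP, PSMD9, PSME4 and PSME3 stood at 0.12, 0.046, 0.15, 0.031, 0.024 and 0.021, and with log2(FPKM + 0.1) at 0.12, 0.048, 0.17, 0.033, 0.025 and 0.022. With upper-quartile factors PSMA4, PSMC6 and PSMC3IP stood at 0.047, 0.067 and 0.057. With at least 10 counts in every library PSMC6 and PSMC3IP stood at 0.014 and 0.0038. With a library left out PSMD1 lay between -0.0051 and 0.068, PSMC3IP between -0.094 and 0.022 and PSMC6 between -0.051 and 0.031. The GC correction turned PSMC3IP (0.027), PSMD1 (-0.083) and PSMD6 (-0.11), and GC with length PSMC3IP (0.15) and PSMD1 (-0.086). Of the 33 genes named by rule with values, 21 kept sign and call in all alternatives.

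Same-numbered libraries of the groups did not deviate together (correlations of 0.03, -0.02 and -0.0025), so the numbers were not taken as pairs. A fit with the replicate number as a block called 31 proteasome genes, all lower, beside 4311 lower and 4296 higher of 12369 tested genes. The difference between core and cap medians was then -0.28.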
